A study of Homo sapiens with 42 samples.

Results

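SQ20B is an HPV-negative line of head and neck squamous cell carcinoma (HNSCC), which the study lists as carrying extra copies of EGFR, and its untreated cells were set here against untreated cells of 5 other HNSCC lines. Members were chosen by label: the 3 SQ20B control arrays, and as the comparison the 15 control arrays of SCC25, SCC61, SCC047, SCC090 and 93VU147T, 18 of the 42 arrays of the series. SCC25 and SCC61 are HPV-negative, and SCC047, SCC090 and 93VU147T are HPV-positive, by the study's account. Each line was also measured on 3 arrays after cetuximab, an antibody that blocks the ligand site of EGFR, at 100 nM for 24 hours, and these arrays were fitted apart from the control arrays. The labels give a cetuximab survival of 28.65 for SQ20B, against 7.61 to 40.16 for the 5 lines, taken here as percent. By the study's methods, survival is the colony area after 7 days of drug relative to control cells. The measure was total RNA on Affymetrix hgu133plus2.0 arrays, given as log2 values per probe set, so that a difference of 1 is a doubling, and each of 19775 genes was followed through 1 probe set. Each group is 1 cell line on 3 arrays. Whether the 3 arrays of a line stem from independent cultures is not in the labels, so a p-value here reflects array-to-array variation that may be technical, and each difference is one between single lines.

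Squamous carcinoma lines derive from stratified epithelium, whose basal cells carry keratins 5 and 14 and whose differentiating layers add keratins 4 and 13, involucrin, small proline-rich proteins and dense desmosomes. EGFR is the receptor for EGF, TGF-alpha and amphiregulin in these cells, and it signals through RAS and ERK to genes such as FOSL1 and the DUSP phosphatases. Genes of the MAGE family are normally read in the germ line, and their promoters are silent in most somatic cells. An identity programme is used here as a description: the genes whose level in all 3 SQ20B arrays lay above the highest, or below the lowest, of the 15 other arrays.

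Against the mean of the 5 line means, 4669 genes were called higher in SQ20B (23.6% of all genes) and 5235 lower (26.5%) by limma at a Benjamini-Hochberg adjusted p under 0.05, with a median difference over all genes of −0.01 on the log2 scale. The SQ20B array of replicate 3 has a file of another date than the rest, and without it 4316 genes were higher and 4827 lower. Of all calls, 825 were higher and 1040 lower by at least 1 on the log2 scale. All 3 SQ20B arrays lay above the other 15 for 1166 genes (5.9%) and below them for 1073 (5.43%), together 2239 genes or 11.3%. The gap to the nearest array of another line was 1 or more for 92 of the genes above and 111 of the genes below. Counted the same way, the other lines had 816 genes above and 789 below in SCC25, 1494 and 1664 in SCC61, 1392 and 728 in SCC047, 2090 and 1867 in SCC090, and 1318 and 948 in 93VU147T, so that a programme of this size was not particular to SQ20B. At the edge of the rule, OMA1 was just counted, at 7.916 in the lowest SQ20B array and 7.916 in the highest other array to 3 decimals, and DCAF13 just missed, at 11.035 against 11.036. Of 12 squamous markers 8 were measured, and KRT5, CDH1, CDH3, DSP, DSG3 and SERPINB5 had an SQ20B mean of at least 6, the level used here for expressed, while KRT14 and PKP1 were under it. Fibroblast, leukocyte and endothelial markers reached that level in SQ20B for DCN and PECAM1 alone, of 23 measured. The summed level of the fibroblast list was 7.99 to 8.03 in SQ20B and 8.64 to 10.31 in the other arrays, that of the leukocyte list 7.98 to 8.06 and 7.67 to 8.92, and that of the endothelial list 8.08 to 8.14 and 7.92 to 8.40.

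The genes furthest above the other lines were led by cancer-testis antigens of the X chromosome. MAGEA6 read 11.85, 12.02 and 11.79 in the SQ20B arrays, against 3.29 to 5.69 with a median of 3.59 in the 15 others, a difference of 7.87 (SE 0.08, limma adjusted p = 3.23e-22), with the others near the low end of the array scale. MAGEA12 read 10.43, 10.75 and 10.44 in SQ20B, against 3.42 to 4.04 in the others, a difference of 6.76 (SE 0.08, limma adjusted p = 2.41e-21). The SQ20B arrays were all high and the others all low for both genes, with no overlap, although the higher of the other values for MAGEA6 all belonged to SCC61, whose mean was 5.65. MAGEA4 read 8.09, 7.94 and 7.35 in SQ20B, against 3.18 to 3.53, and MAGEB2 8.04, 8.19 and 8.11, against 3.52 to 4.20. Of 14 cancer-testis genes measured, 8 were called higher and 0 lower, beside 23.6% and 26.5% of all genes. Of the 14, 7 lay above all other arrays, beside 5.9% of all genes, and the median difference was 0.69. Outside those 4 genes the differences were small and the levels low: PRAME, a repressor of retinoic acid signalling, differed by 0.96, MAGEA10 by 0.81, MAGEA1 by 0.72 and MAGEC2 by 0.65, all with SQ20B means of 6.05 or less. MAGEA6 and MAGEA12 were read by probe sets of the type that can bind transcripts of close relatives, so the share of each MAGEA gene in these values is uncertain.

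Promoter stretches of the 4 MAGE genes are printed because they share a run of letters and all 4 are among the 15 genes furthest above the other lines. They come from RefSeq on GRCh38.p14, each lies before an annotated start, and the capitals mark the run GGATGTGA, an 8-letter sequence chosen after the 4 promoters had been read.
MAGEA6, chrX:152769718-152769845, minus strand: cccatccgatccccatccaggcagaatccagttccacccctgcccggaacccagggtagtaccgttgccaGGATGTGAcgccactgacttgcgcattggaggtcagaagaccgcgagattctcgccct
MAGEA12, chrX:152733675-152733802, plus strand: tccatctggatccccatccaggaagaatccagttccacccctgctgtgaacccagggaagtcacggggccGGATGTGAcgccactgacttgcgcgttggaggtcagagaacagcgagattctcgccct
MAGEA4, chrX:151912384-151912473, plus strand: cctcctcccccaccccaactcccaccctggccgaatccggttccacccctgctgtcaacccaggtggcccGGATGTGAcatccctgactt
MAGEB2, chrX:30215430-30215557, plus strand: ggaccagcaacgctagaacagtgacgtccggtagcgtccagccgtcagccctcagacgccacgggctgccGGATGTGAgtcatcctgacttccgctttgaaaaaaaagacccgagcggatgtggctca
The run starts 86 bases before the start of MAGEA6, 117 before that of MAGEA12, 20 before that of MAGEA4 and 63 before that of MAGEB2. Searched on both strands in windows of 300 bases, 250 before to 50 after each start, it was found in 406 of 35116 promoters, or for 379 of 27305 genes (1.39%). Of the 11 measured cancer-testis genes that the promoter table holds, 5 carried it, and 4 of these did so by the choice of the run. The fifth was MAGEA11, whose difference was −0.01 (limma adjusted p = 0.884), and PRAME and MAGEC2 were called higher without the run in their windows. A match is a string of letters and not a measured site. The stretches of MAGEA6 and MAGEA12 are alike over most of their length, so their matches may not count as separate observations.

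Beyond the MAGE genes, the 15 largest differences upward held genes of several kinds. PHACTR3, a regulator of protein phosphatase 1 and actin, read 9.73, 9.93 and 9.66 in SQ20B, against 3.48 to 4.21 in the others (difference 5.95, SE 0.09, limma adjusted p = 3.75e-20). CCND2, the D-type cyclin that drives entry into S phase with CDK4 and CDK6, read 11.78, 11.94 and 11.83 in SQ20B, against 3.77 to 10.68, a difference of 4.12. No array of another line came within 1 log2 unit of SQ20B for either gene, and the nearest for CCND2 were those of SCC61, with a mean of 10.58. EPDR1, a secreted ependymin-related protein of chromosome 7, was 8.22 on average in SQ20B, against 3.49 to 4.17. ADAMTS6, a secreted metalloprotease, differed by 4.26, ST6GALNAC5, a sialyltransferase, by 3.95, SERPINB7, a serine protease inhibitor of squamous epithelium, by 3.77 (SE 0.31), BCAT1, the cytosolic branched-chain aminotransferase, by 3.76, and GBP3, a guanylate-binding protein, by 3.68. TMEM132D-AS1 (5.13), ZNF738 (4.34) and SHOC1 (3.75), a meiotic gene, complete the 15. All 15 were also above the other lines in the cetuximab arrays. They were all called higher against SCC25 and SCC61 alone, a comparison with 4534 genes higher (22.9%) and 4450 lower (22.5%) in SQ20B. That direction was fixed by the choice of genes, which had to lie above the SCC25 and SCC61 arrays too. In untreated HaCaT keratinocytes, which stayed outside the fit and whose array files have a date of their own, so that line and date cannot be told apart, ZNF738 averaged 7.08, CCND2 10.63 and SERPINB7 11.3, and of these only CCND2 came near that level in another carcinoma line, SCC61.

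**Figure D1:**
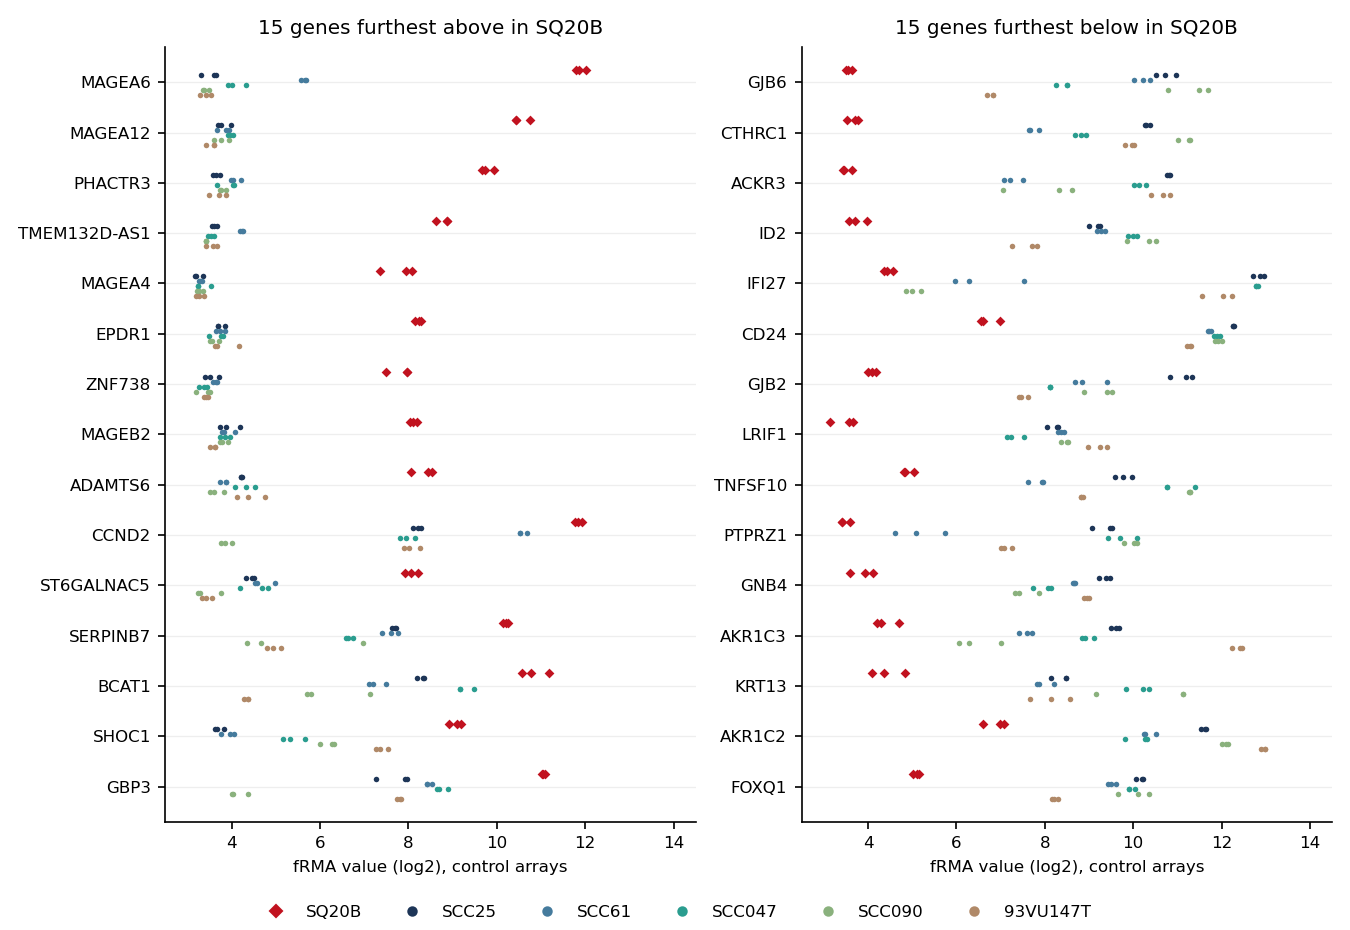
Log2 values of the 15 genes furthest above (left) and the 15 furthest below (right) in SQ20B, 1 point per control array, with SQ20B as red diamonds and the 5 other lines as circles. For every gene the 3 SQ20B points lie outside the other 15, by as little as 0.29 for IFI27 and by 6.38 for MAGEA12.

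Downward, the largest differences were in genes of several kinds. GJB6, which encodes connexin 30, read 3.51, 3.63 and 3.55 in SQ20B, against 6.70 to 11.70 with a median of 10.23 in the others (difference −5.94, SE 0.13, limma adjusted p = 8.62e-18). GJB2, which encodes connexin 26 and is the measured gene next to GJB6 on chromosome 13, read 4.10, 4.00 and 4.17, against 7.41 to 11.34 (difference −4.91). Both connexins were near the low end of the array scale in every SQ20B array and in no array of another line, and the gene on the other side of GJB6, CRYL1, differed by −0.49. ID2, an inhibitor of basic helix-loop-helix factors, read 3.71, 3.97 and 3.57 in SQ20B, against 7.27 to 10.52, a difference of −5.50. CD24, a glycosylated surface protein, read 6.61, 6.99 and 6.56, against 11.22 to 12.29, a difference of −5.10 or 34.2-fold lower. The 5 lines lay within about 1 log2 unit of each other for CD24, so that SQ20B stood alone. CTHRC1, a secreted regulator of collagen deposition, differed by −5.93, and ACKR3, a scavenging chemokine receptor, by −5.86. TNFSF10, the death ligand TRAIL, differed by −4.85, PTPRZ1, a receptor-type tyrosine phosphatase, by −4.79, and FOXQ1, a forkhead factor, by −4.49. All 15 of the largest decreases were also called against SCC25 and SCC61 alone, a direction fixed by the choice of genes below all other control arrays. In the cetuximab arrays 14 of 15 were below all other lines. The exception was AKR1C3, a steroid and prostaglandin reductase.

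Some of these genes were near the lowest values of the array in SQ20B. With thresholds chosen after the values were seen, every SQ20B control array was under 5 and every other control array at least 6.5 for 16 genes, and the reverse held for 11. The same counts were 4 and 9 in SCC25, 4 and 5 in SCC61, 3 and 10 in SCC047, 39 and 31 in SCC090, and 9 and 1 in 93VU147T. CHUK, which encodes the kinase IKK-alpha of the NF-kappaB pathway and of keratinocyte differentiation, ranged from 3.31 to 3.52 in SQ20B, against 7.12 to 8.17 in the others. The measured genes on either side of it on chromosome 10 stayed at ordinary levels: ERLIN1 averaged 9.36 in SQ20B, against 8.60 to 10.31, and CWF19L1 8.68, against 7.25 to 9.05. LRIF1, a nuclear receptor and HP1 interacting factor, read 3.67, 3.57 and 3.13 in SQ20B, against 7.14 to 9.41, and its neighbour DRAM2 averaged 9.37 in SQ20B, against 8.69 to 10.12, while CD53 on its other side was low in every line (5.34 in SQ20B, against 4.61 to 5.39). GNB4, a G protein beta subunit, read 3.94, 3.59 and 4.11, against 7.33 to 9.48, between MFN1 at 8.46 and ACTL6A at 9.63. These neighbours lay inside the range of the other lines, but NDUFB5, 3 genes from GNB4, averaged 10.62 in SQ20B, against 11.04 to 11.67. CHUK, LRIF1, GNB4, GJB2, ID2, HERC5, an interferon-induced ubiquitin-like ligase, KDM4C, a histone demethylase, PER3, a clock gene, and CTHRC1 met the same thresholds in the cetuximab arrays. For CHUK, LRIF1, GJB2, GJB6, HERC5 and CTHRC1 only 1 probe set was available, so no other probe set could check the low reading. The second probe set of ID2 averaged 3.97 in SQ20B, against line means of 5.71 to 8.03. The further probe sets of GNB4, KDM4C and PER3 are not given singly here. GNB4 and CTHRC1 were also low in HaCaT cells, at 3.50 and 3.74.

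The EGFR probe set read 12.92, 12.82 and 12.99 in the SQ20B arrays, against 9.17 to 12.13 with a median of 11.04 in the other 15. All SQ20B arrays were above all others, and the lines followed in the order SCC61 (12.04), SCC25 (11.23), SCC047 (10.95), 93VU147T (10.90) and SCC090 (9.39), with SCC047 and 93VU147T differing by 0.05. The difference from the 5 lines was 2.01 (SE 0.13, limma adjusted p = 4.78e-11), or 4.02-fold, and 1.27 against SCC25 and SCC61. It ranked 129 among genes called higher. Of the 9 EGFR probe sets, 7 had their highest line mean in SQ20B, while a second bright one averaged 12.22 in SQ20B and 12.41 in SCC61. ERBB2, the partner receptor without a ligand, was lower by 0.56, and ERBB3 and ERBB4 were not called. Against SCC25 and SCC61 alone, 2 of the 4 receptors of the family were called higher and 0 lower. ERBB2 was thus not called lower in that comparison, which called 22.9% of all genes higher and 22.5% lower. Of 5 ligands measured, EREG (−0.51) and EGF (−0.30) were called lower and 0 higher, beside 26.5% and 23.6% of all genes. Without SCC61, however, EREG was higher, by 0.43. Against SCC25 and SCC61 alone 4 of the 5 were lower and 0 higher, with a median of −0.54. The adaptors and inhibitors of the receptor held 9 called higher and 6 lower of 16, beside 23.6% and 26.5% of all genes. In the comparison with SCC25 and SCC61 alone, 5 were higher and 6 lower, with a median of 0.04. The list was led by EPS8, a kinase substrate that links EGFR to actin, at 10.55 in SQ20B, against 7.96 to 8.92 (difference 2.12). It was led downward by LRIG1, a transmembrane inhibitor of EGFR, at 4.10 in SQ20B, against 5.01 to 8.63 (difference −2.49).

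Of the 20 measured genes next to EGFR on chromosome 7, 10 on each side, 10 were called higher in SQ20B, 1 lower, and 6 lay above all other arrays, beside the 23.6%, 26.5% and 5.9% of all genes. CCT6A, a subunit of the chaperonin TRiC, read 12.16, 12.24 and 12.07 in SQ20B, against 10.14 to 11.20 (difference 1.55, SE 0.06, limma adjusted p = 5.84e-14). MRPS17, a mitochondrial ribosomal protein, read 11.27, 11.28 and 11.29, against 9.29 to 10.03 (difference 1.52). VOPP1, a vesicle protein, read 11.20, 11.32 and 11.18, against 9.26 to 10.66 (difference 1.34). For CCT6A, MRPS17 and VOPP1 the SQ20B arrays were the highest of the 18, by 0.87, 1.24 and 0.53. LANCL2, the gene that follows EGFR in the order used, averaged 8.96, against 7.25 to 8.35 with no overlap (difference 1.30), and CHCHD2, a mitochondrial protein at the far end of the stretch, differed by 0.60. COBL, an actin nucleator on the other side, read 7.13, 7.40 and 7.23, against 4.28 to 6.78 (difference 1.95). PSPH, the last enzyme of serine synthesis, and NIPSNAP2 and SUMF2 were called higher, by 1.01, 0.46 and 0.30, with SQ20B inside the range of the others. GRB10, a receptor adaptor, was lower by 0.52. The genes beyond it, ZPBP, IKZF1, FIGNL1, DDC and DDC-AS1, were not called, and 13 of the 20 were expressed, of which 9 were called higher. The median over the 20 was 0.17.

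**Figure D2:**
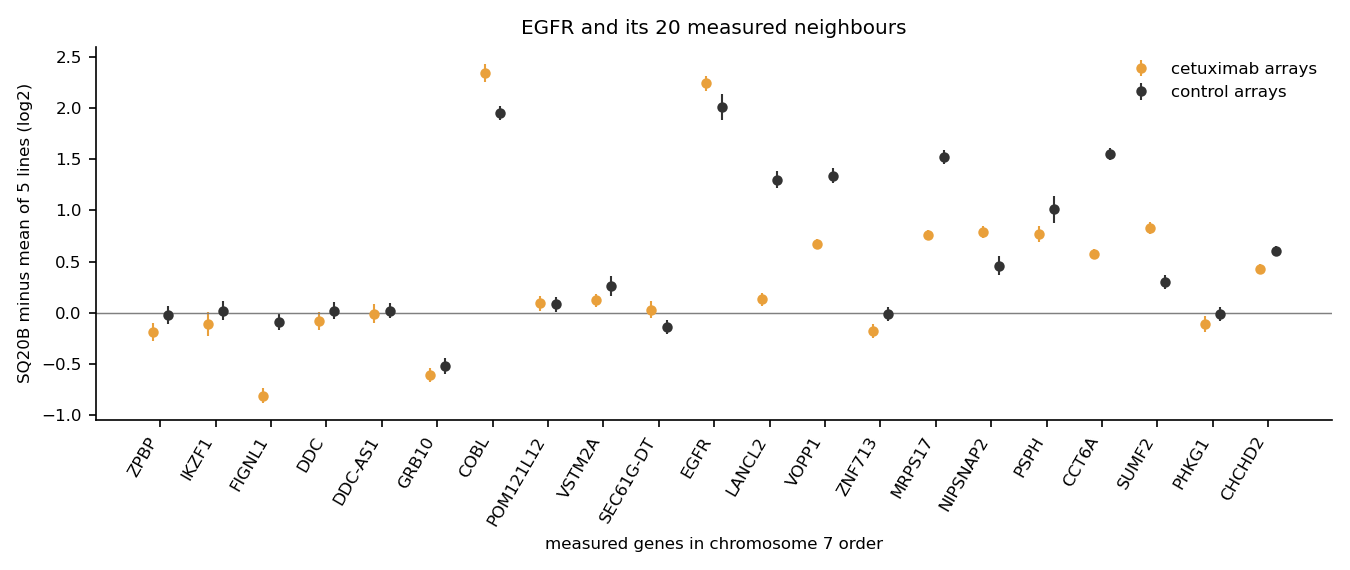
Difference of SQ20B from the mean of the 5 lines on the log2 scale (points, with bars of 1 SE) for EGFR and the 10 measured genes on each side, in chromosome 7 order, in cetuximab arrays (orange) and control arrays (black). In control arrays COBL, EGFR, LANCL2, VOPP1, MRPS17 and CCT6A lie at 1.30 or more, and in cetuximab arrays LANCL2 lies at 0.13.

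The EGFR stretch was not where SQ20B differed most along the chromosomes. Medians were taken over every run of 21 neighbouring genes, and again, after seeing the data, over every run of 21 expressed genes. The run centred on EGFR had a median of 0.26 and ranked 662 of 19226 from the top, and among expressed genes 0.50 and 616 of 11561. The highest median among expressed genes, 1.87, belonged to a run on chromosome 1 from CDC7 to CNN3, in which all 21 genes were called higher and 15 lay above all other arrays; the run was chosen for its values, so these are a description. ARHGAP29, a GTPase-activating protein, averaged 12.59 in SQ20B, against line means of 5.52 to 11.29 (difference 3.54). CDC7, the kinase that fires replication origins, averaged 10.38, against 5.69 to 9.08, F3, the tissue factor that starts coagulation, 12.16, against 6.80 to 11.83, and GCLM, a subunit of the first enzyme of glutathione synthesis, 11.46, against 8.83 to 10.95. EPHX4, SLC44A3, EVI5, CNN3 and ABCD3 differed by 2.95, 2.93, 2.21, 2.15 and 2.10. The 6 genes of the run that overlapped the other arrays were TGFBR3, DIPK1A, CCDC18, CCDC18-AS1, DR1 and BCAR3. Taken against its own 5 counterparts, SCC25 had the next highest median over the same 21 genes, 0.83, and the other 4 lines had −0.84 to −0.21.

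**Figure D3:**
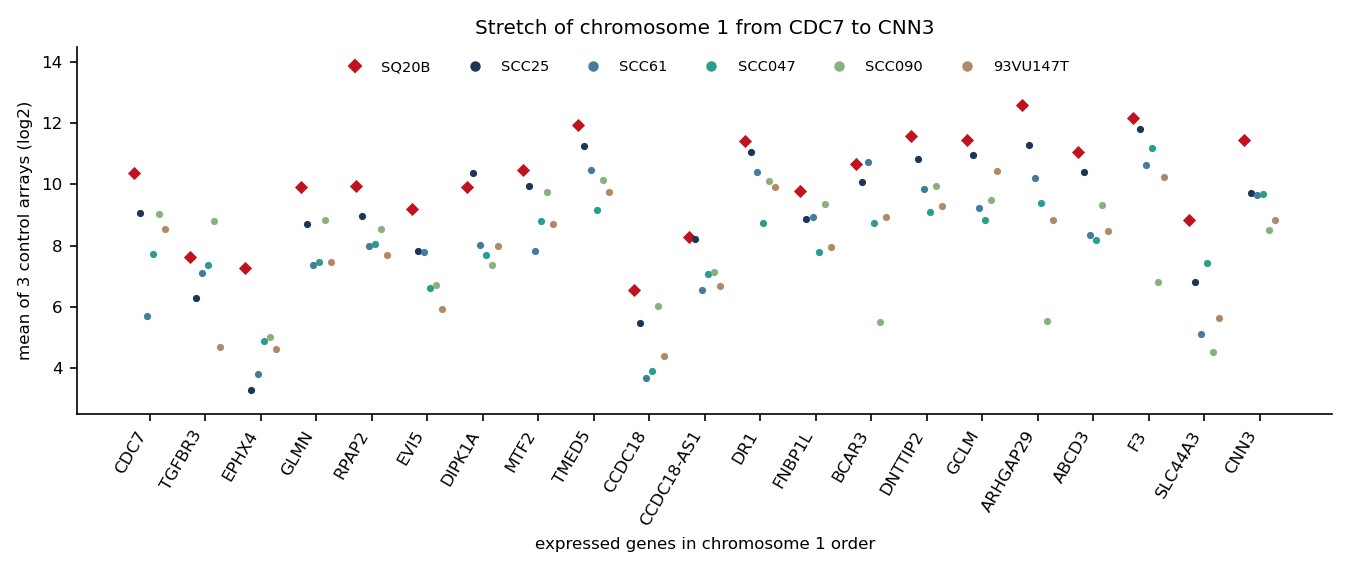
Mean log2 value of 3 control arrays for the 21 expressed genes from CDC7 to CNN3 in chromosome 1 order, with SQ20B as red diamonds and each other line as a coloured circle. SQ20B has the highest line mean for every gene except TGFBR3, DIPK1A and BCAR3.

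A second run of chromosome 1, from TSPAN2 to SEC22B, had a median of 1.30 with 11 genes above all other arrays. It held NOTCH2 at 11.52 in SQ20B, against line means of 8.54 to 10.42, WDR3, a ribosome assembly factor, at 11.04, against 7.86 to 9.22, TTF2 at 10.08, against 6.34 to 8.14, and MAN1A2, a Golgi mannosidase, at 10.38, against 7.02 to 9.17. In the same run NHLH2, a neuronal transcription factor, was lower by 2.62, so the members did not all move one way. On chromosome 12 the run from GPRC5A to PYROXD1 (median 1.05) held EPS8 and the transporter SLCO1B3 (9.63 in SQ20B, against 3.37 to 8.26). The lowest median, −0.99, belonged to a run of histone and butyrophilin genes of chromosome 6 from H2AC6 to ZNF184, where all 21 were called lower and 4 lay below all other arrays. H2AC6 averaged 7.24 in SQ20B, against 8.48 to 10.13, and H2BC5 7.75, against 8.80 to 10.12. Around ACIN1 on chromosome 14 the median was −0.86, with EFS, an adaptor of SRC signalling, at 3.94 in SQ20B, against 5.00 to 9.65, and BCL2L2, an anti-apoptotic BCL2 relative, at 7.45, against 8.55 to 8.78.

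The counts of gene lists in control arrays stand beside 23.6% of all genes called higher and 26.5% called lower. Of 18 genes of keratinocyte differentiation measured, 14 were called lower, 0 higher, and 6 lay below all other arrays, with a median of −0.70. KRT13, a keratin of suprabasal mucosa, read 4.08, 4.36 and 4.84 in SQ20B, against 7.66 to 11.13 (difference −4.59, SE 0.28, limma adjusted p = 3.82e-11). SPRR1B, a precursor of the cornified envelope, differed by −4.22, SPRR1A by −1.84 and KRTDAP, a secreted keratinocyte peptide, by −1.83. Among 6 basal genes 4 were called lower and 0 higher. KRT14 read 4.67, 4.73 and 5.15, against 5.02 to 14.21, with line means of 14.20 in SCC25, 13.66 in SCC047, 12.21 in SCC61, 7.05 in 93VU147T and 5.77 in SCC090. So SQ20B was low for KRT14 but touched the range of SCC090. KRT5, its usual partner, averaged 12.13 and was not called. SOX2, a stem cell factor of squamous epithelium, averaged 3.57, against 3.79 to 12.48, and KRT15 and KRT16 lay below all other arrays. Simple epithelial keratins ran the other way, with 4 of 5 called higher and 0 lower: KRT18 averaged 13.33, against 10.22 to 13.08, and KRT19 and KRT8 were higher by 2.92 and 1.92 inside the range of the others. The call of KRT7, at 0.62, was lost without SCC090 (0.01).

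Of 22 junction genes 14 were called lower and 3 higher, and 3 lay below all other arrays, with a median of −0.34. Against SCC25 and SCC61 alone 5 were higher and 10 lower, beside 22.9% and 22.5% of all genes, with a median of −0.03. The 5 higher were thus near the share of all genes. In cetuximab arrays 9 were higher and 10 lower than in the 5 lines, beside 24.9% and 27.8%, with a median of 0.05. PKP1, a plakophilin of suprabasal desmosomes, averaged 5.67 in SQ20B, against 8.67 to 11.18 (difference −4.07), while PKP2, the plakophilin of simple epithelia and heart, averaged 9.58, against 6.81 to 8.05 (difference 2.16). JUP, which encodes plakoglobin, and OVOL1, an epithelial zinc finger factor, were below all other arrays, with differences of −1.79 and −2.21. CDH1, DSP and DSG2 were not called. Genes of mesenchyme were called lower in 8 cases and higher in 4 of 17, the latter near the 23.6% of all genes, with a median of −0.01. In the comparison with SCC25 and SCC61 alone, 9 were lower and 1 higher, with a median of −0.54. Of the 17 genes, VIM, the intermediate filament of mesenchymal cells, was at 6.59, against 7.38 to 11.29, and COL1A1 at 5.46, against 7.81 to 9.59. The adhesion protein CDH2 was higher by 1.00. Of the 9 fibroblast markers 6 were called lower and 0 higher beside these, and their part in the result was not tested. Of 14 matrix proteases and their regulators 10 were lower and 2 higher. MMP1, an interstitial collagenase, differed by −3.85 with values inside a wide range of 3.16 to 12.98. Of 11 S100 genes 7 were lower and 1 higher, from S100A8, a calgranulin (−4.40), to S100A14 (1.34).

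Of 14 Notch pathway genes 12 were called lower, 1 higher, and 6 lay below all other arrays, with a median of −1.21. Notch signalling drives differentiation in stratified epithelium. The receptor NOTCH3 read 5.13, 5.13 and 5.08 in SQ20B, against 5.95 to 10.07 (difference −2.62, SE 0.15, limma adjusted p = 1.59e-11), and the target HES1 read 7.62, 7.87 and 7.47, against 9.40 to 10.53 (difference −2.16). No SQ20B array reached the lowest other array for either. HEY2, another target, differed by −1.76, and the ligand JAG1 by −1.35. The 1 gene called higher was NOTCH2, the member of the chromosome 1 run.

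Interferon response genes were called lower in 17 cases and higher in 1 of 18, with a median of −2.26. IFI27, a mitochondrial interferon-induced protein, read 4.57, 4.37 and 4.42 in SQ20B, against 4.86 to 12.97 (difference −5.38, SE 0.20, limma adjusted p = 1.68e-14). IRF9, the DNA-binding part of the ISGF3 complex, read 6.95, 6.92 and 6.87, against 8.84 to 11.12 (difference −3.02). For IRF9 the gap to the others was wide, whereas for IFI27 the nearest line was SCC090, at 5.02. OAS2 and IFI44L, antiviral genes, were lower by 3.28 and 3.26 inside the range of the others, and 3 of the 18 lay below all other arrays. Of 11 genes of MHC class I presentation 8 were lower and 1 higher, led by HLA-B (−2.27), HLA-F (−2.05), HLA-C (−1.68) and TAPBP (−1.64), the chaperone tapasin, while B2M was not called. Against SCC25 and SCC61 alone the medians were −2.79 for the interferon list and −1.71 for MHC class I.

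Of 14 targets of NRF2, the factor of the oxidant response, 8 were lower and 4 higher. The aldo-keto reductases AKR1C1, AKR1C2 and AKR1C3 were all below the other lines, by 4.38, 4.53 and 4.59 on the log2 scale, with AKR1C2 at 7.08, 6.60 and 6.99 in SQ20B, against 9.81 to 12.99. These 3 genes are close copies whose probes may share signal, so they may not count as separate observations. SLC7A11, the cystine importer, was higher by 2.09, and GCLM, again of the chromosome 1 run, by 1.68.

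Genes of cell division and of ERK output leaned upward in untreated SQ20B. Of 22 proliferation genes 13 were called higher and 1 lower, with a median of 0.31, and TYMS, the thymidylate synthase, was the furthest at 1.10. MKI67 read 9.39, 9.44 and 9.54, against 7.27 to 9.33, just above every other array. Among cell cycle regulators CDK6 was higher by 1.77, CDKN2A, which encodes p16 and is high in HPV-positive lines, lower by 3.19, and CDKN1A, which encodes p21, lower by 1.57 and below all others. Of 16 ERK output genes 9 were higher and 4 lower, with a median of 0.59. FOSL1, an AP-1 subunit, read 10.86, 10.45 and 10.88 in SQ20B, against 5.06 to 9.20 (difference 2.92, SE 0.13, limma adjusted p = 4.92e-13), and DUSP5, a nuclear ERK phosphatase, 9.68, 9.43 and 9.65, against 4.92 to 9.33 (difference 2.18). Both were above all 15 other arrays. Among other receptors AXL was higher by 2.11, at 10.68 on average in SQ20B, against 4.00 to 10.33, while FGFR3 averaged 5.71, below every other array, and FGFR2 was lower by 1.38. Of 11 p53 targets 3 were higher, among them TP53I3 (2.21) and FAS (1.79), a share near the 23.6% of all genes, and 5 were lower, led by TP53INP1 (−3.21).

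**Figure D4:**
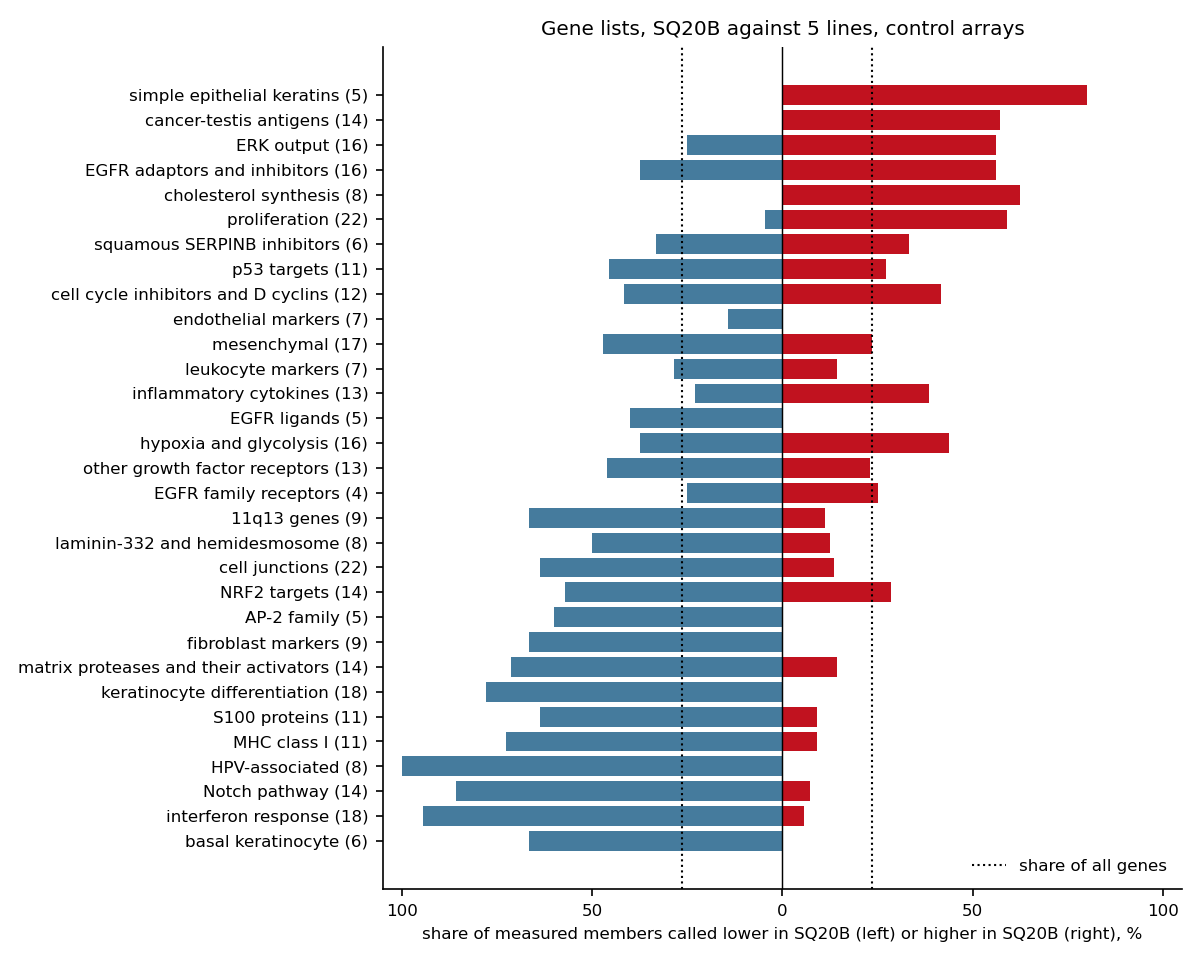
Share of the measured members of each of 31 gene lists that limma called lower (left, blue) or higher (right, red) in SQ20B than in the 5 lines in control arrays, ordered by the median difference, with the number measured in parentheses. Dotted lines mark the shares of all genes, 26.5% lower and 23.6% higher.

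The cetuximab arrays gave a second reading of the same lines. The 3′ minus 5′ signal of ACTB, a sign of RNA quality, was 0.54, 0.68 and 0.47 in the SQ20B cetuximab arrays and 0.28, 0.15 and 0.39 in the SQ20B control arrays, against 0.25 to 0.49 in the cetuximab arrays of the other lines, and its part in the results was not tested. In the cetuximab arrays 4925 genes were called higher in SQ20B (24.9%) and 5500 lower (27.8%), with 1526 above (7.72%) and 1236 below (6.25%) all other arrays. Of the 1166 genes above in control arrays 628 (53.9%) were above again, which is 41.2% of the genes above in cetuximab arrays, and 1 was below. Of the 1073 below, 528 (49.2%) were below again, which is 42.7% of those below in cetuximab arrays, and 1 was above. Where the gap in control arrays was at least 1, 85 of 92 genes were above again and 94 of 111 below again. EGFR differed by 2.24 in cetuximab arrays and by 2.01 in control arrays, a change of 0.23 that was not called (limma interaction adjusted p = 0.267). The other bright EGFR probe sets were not tested, and they differed among themselves. Some changed more, with differences of 3.09 in cetuximab arrays and 2.28 in control arrays, 2.71 and 2.05, and 2.70 and 2.01. Another, at 12.66 in untreated SQ20B, stayed level, with 2.79 in cetuximab arrays and 2.82 in control arrays. Over its 20 neighbours the median was 0.10 in cetuximab arrays and 0.17 in control arrays, and 6 of them had a lower and 3 a higher difference under cetuximab by the interaction test, which called 15% of all genes lower and 17.8% higher. LANCL2, VOPP1 and CCT6A overlapped the other lines in cetuximab arrays, at differences of 0.13, 0.67 and 0.57, while NIPSNAP2, PSPH and SUMF2 moved out of their range. The chromosome 1 run from CDC7 kept a median of 1.75 in cetuximab arrays, against 1.87 in control arrays.

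ERK output was the list whose place changed most between the treated and the untreated arrays by its median interaction. With cetuximab 4 of the 16 genes were higher and 11 lower in SQ20B than in the 5 lines, against 9 and 4 in control arrays. In cetuximab arrays 24.9% of all genes were called higher and 27.8% lower, and in control arrays 23.6% and 26.5%. Each count of 4 was thus near the share of all genes. The interaction test called 11 of the 16 lower under cetuximab and 0 higher, with a median of −1.08 beside −0.02 for all genes. FOSL1 read 7.47, 7.53 and 7.42 in cetuximab-treated SQ20B, against 10.86, 10.45 and 10.88 in its control arrays, and differed from the 5 lines by 0.23 with cetuximab, against 2.92 in control arrays (limma interaction adjusted p = 1.09e-13). EGR1 read 4.98, 5.31 and 5.27 in treated SQ20B, against 10.43, 9.69 and 10.62 in control arrays. Its change of −5.06 in SQ20B compares with −3.78 to −0.64 in the 5 lines. DUSP6, an ERK phosphatase, fell by 4.56 in SQ20B, against changes of −3.13 to −0.72 in the others. Of 22 proliferation genes the interaction test called 15 lower and 0 higher, and with cetuximab 6 were higher and 13 lower in SQ20B than in the 5 lines. The 6 were near the 24.9% of all genes called higher in cetuximab arrays. Some lists went the other way by the interaction test, with 9 of 11 MHC class I genes called higher and 0 lower, and 8 of 14 Notch genes called higher and 0 lower. The MHC class I median was −0.36 in cetuximab arrays and −1.05 in control arrays, and the Notch median −0.73 and −1.21.

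**Figure D5:**
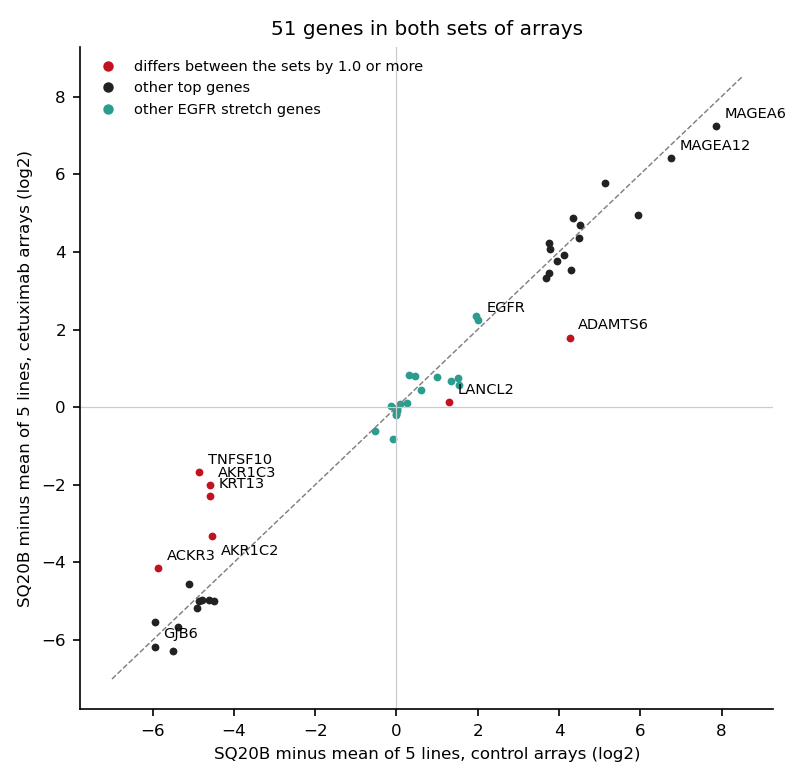
Difference of SQ20B from the mean of the 5 lines on the log2 scale in cetuximab arrays (vertical) and in control arrays (horizontal) for 51 genes: the 30 top genes, EGFR and its 20 neighbours, with the dashed line marking equal differences. ADAMTS6, ACKR3, TNFSF10, AKR1C2, AKR1C3, KRT13 and LANCL2 (red) are nearer to 0 in cetuximab arrays by at least 1.0, and PHACTR3 is just short of that.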

How the data were processed

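Total RNA of 42 Affymetrix hgu133plus2.0 arrays was used, 3 in each of 14 conditions, and 36 of them belong to the 6 lines compared. The deposited log2 values, 1 per probe set, were made by the authors with fRMA 1.16.0 (background correction, normalization to a frozen reference, probe summary). The study also describes pSVA, a batch correction, but the sources used do not tell if the deposited values went through it. No further normalization was applied here. Values ran from 2.62 to 14.5, with array medians of 5.09 to 5.16. Such values hold no read depth, and the number of arrays limits the precision.

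Of 54675 probe sets, 41091 carry 1 gene symbol, 1801 several and 11721 none in the annotation used, and 62 are controls. A gene was represented by its brightest probe set on average over the 42 arrays, which left 19775 genes. Gene order came from the RefSeq table of GRCh38.p14. The files name no build, so coordinates are given only for the promoter stretches, from RefSeq itself. With limma 3.58.1 under R 4.3.3, 6 line means were fitted to the 18 control arrays (12 residual and 6.7 prior degrees of freedom), and SQ20B minus the mean of the other 5 was tested with Benjamini-Hochberg adjustment over all genes at 0.05. The 18 cetuximab arrays had a fit of their own, and the interaction used all 36. The step was tested on simulated data. Named genes are the 15 largest differences each way among called genes outside the other arrays, EGFR and its 20 neighbours, and up to 4 called members of each of 31 lists. Further genes, among them those of the chromosome runs, CHUK and members named as not called, were chosen after their values were seen. The members and lists were chosen with earlier results of these data known. Alternatives covered the probe set rule, scaling, a filter on dim genes, the fit, and leaving out each array or line. SQ20B control replicate 3 has an array file of another date than the other 17 control arrays. The 3′ minus 5′ signal of ACTB was 0.15 to 0.39 in SQ20B control arrays and 0.20 to 0.46 in the other control arrays. Replicates of a line correlated at 0.9907 to 0.998, and none were duplicates.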

Additional observations from a re-analysis of the deposited data

Results flagged for a closer look

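Of 51 genes checked (the 30 top genes, EGFR and its 20 neighbours), 7 had an SQ20B difference that changed by at least 1 on the log2 scale between cetuximab and control arrays at an interaction adjusted p under 0.05 in limma. TNFSF10, the death ligand TRAIL, differed from the 5 lines by −1.68 in cetuximab arrays and by −4.85 in control arrays, a change of 3.17 (SE 0.16, adjusted p = 7.25e-16). In SQ20B it read 8.78, 8.54 and 8.81 with cetuximab, against 4.83, 5.04 and 4.82 without. AKR1C3 differed by −2.01 and −4.59 in the same order, a change of 2.57, and it was the 1 top gene that overlapped the other lines under cetuximab. KRT13 changed by 2.30, ACKR3 by 1.70 and AKR1C2 by 1.21, so these 5 genes that were low in untreated SQ20B stood closer to the other lines under cetuximab. ADAMTS6 differed by 1.79 in cetuximab arrays and 4.26 in control arrays, a change of −2.47. LANCL2, next to EGFR, differed by 0.13 in cetuximab arrays and 1.30 in control arrays, a change of −1.17 (SE 0.11, adjusted p = 2.55e-10). Its second probe set of moderate level differed by −0.10 and 0.70.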

How the results depend on the processing

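All 30 top genes kept their direction and their call in each of their 930 alternative results. They were chosen for large differences in the same control arrays, which most alternatives reuse, so this outcome was largely set by the choice. EGFR differed by 1.41 (mean of all its probe sets) to 2.29 (without SCC61). Over 153 named genes, 4710 of the single-gene values under an alternative kept direction and call, 18 lost the call and 2 gained it. Direction turned in 3: with the probe set of largest SD in place of the brightest, SC5D differed by −0.13 in place of 0.46 and ITGAM by −0.08 in place of 0.22, and without the line SCC61 EREG differed by 0.43 in place of −0.51. KRT7 lost its call without SCC090 (0.01), and MMP10 without SCC047 (−0.92). With a difference of at least 1 also required, 825 genes were higher and 1040 lower. With line means in place of arrays 3069 genes lay above and 2794 below. With the nearest expressed genes as neighbours of EGFR, chosen after seeing the data, the neighbour median was 0.48. Leaving out 1 array at a time gave 4301 to 4775 higher, 4751 to 5361 lower, 1175 to 1383 above, 1081 to 1286 below, 628 to 661 above and 528 to 569 below in both conditions, a neighbour median of 0.15 to 0.21 and an EGFR difference of 1.97 to 2.06. Against SCC25 and SCC61 the range was 4237 to 4642 higher and 4110 to 4568 lower, and in cetuximab arrays 4461 to 4986 higher and 4858 to 5711 lower. Leaving out SQ20B control replicate 3, whose array file has another date, gave 1383 above. The replicate numbers share no more than a number: of 45 pairs of same-numbered arrays 4 correlated over 0.1 (r −0.27 to 0.26), and with the replicate block 4617 genes were higher and 5174 lower, with a neighbour median of 0.17. Arrays give no read depth, and dim genes near the lowest values carry differences that understate or hide a change.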

Other observations

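The control-array counts against the 5 lines in this paragraph stand beside 23.6% of all genes called higher and 26.5% lower, and no list was tested as a set. Of 16 genes of hypoxia and glycolysis, 7 were called higher and 6 lower in untreated SQ20B. BNIP3, a mitophagy receptor, averaged 10.70 in SQ20B, against 8.29 to 10.24 in the others (difference 1.64), while ADM, the peptide adrenomedullin, averaged 9.25, against 9.75 to 12.78, and PFKFB3, a regulator of glycolysis, 7.80, against 8.20 to 10.49. Of 8 genes of cholesterol synthesis 5 were higher and 0 lower, led by HMGCS1 (0.86). With cetuximab 8 of 8 were higher, beside 24.9% of all genes. Of 13 inflammatory cytokines 5 were higher and 3 lower, with IL24 at 2.17, CCL20 at 1.62, CXCL1 at −1.59 and CXCL8 at −1.39. The 8 genes of the HPV-associated list were all called lower in SQ20B than in the 5 lines. Against SCC25 and SCC61, the other HPV-negative lines, 2 were higher and 1 lower, beside 22.9% and 22.5% of all genes. Of 8 genes of laminin-332 and hemidesmosomes, which anchor basal cells, 1 was higher and 4 lower, with LAMB3 at −1.71. Of 5 genes of the AP-2 factors 3 were lower and 0 higher, of 9 genes of the 11q13 band 6 were lower and 1 higher, of 6 squamous SERPINB inhibitors 2 were higher and 2 lower, and of 12 cell cycle inhibitors and D cyclins 5 were higher and 5 lower.

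MMP12, SERPINB4 and SERPINB3 were called higher in SQ20B than in the 5 lines in cetuximab arrays and were not called in control arrays. MMP12, macrophage elastase, read 10.86, 10.60 and 10.76 in treated SQ20B, against 6.13, 6.55 and 5.41 in control arrays, a change of 4.71 beside −0.33 to 0.33 in the 5 lines. In SCC047 it was high both with and without cetuximab, so that treated SQ20B did not exceed that line. SERPINB4, a serine protease inhibitor, differed from the 5 lines by 3.79 in cetuximab arrays and by 0.25 in control arrays, and its neighbour SERPINB3 read 10.65, 10.42 and 10.54 in treated SQ20B, against 7.87, 7.34 and 7.95 in control arrays. All 3 SQ20B cetuximab arrays were above all 3 control arrays for each of these genes. The SERPINB3 and SERPINB4 probes may share signal, since the genes are close copies. These 3 genes were named after their values were seen.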
